A study of Mus musculus with 12 samples.

Results

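The comparison described here asked where the transcriptome of mouse cardiac fibroblasts stood when TGF-β and siRNA against the linker histone H1.0 were given together, relative to fibroblasts that had received neither. It used 6 of the 12 RNA-seq libraries of the series, the 3 of TGF-β plus H1.0 siRNA (the combined group) and the 3 of vehicle plus scramble siRNA (the resting control). All were wild-type primary cardiac fibroblasts of adult C57BL/6J mice, both female and male, which spent 24 h in medium with 0.1% FBS before they were given TGF-β or vehicle. The resting control received vehicle and the scramble siRNA, and the combined group received TGF-β at 10 ng/ml and H1.0 siRNA, for which the study's methods give 40 nM. The other 6 libraries, TGF-β plus scramble and vehicle plus H1.0 siRNA, came from cells handled alike, and their levels are given side by side. The 3 libraries of each group were described as biological replicates, and whether animals were pooled for a replicate is not given in the sources used here.

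Linker histones bind the nucleosome and the DNA that enters and leaves it, and H1.0, encoded by H1f0, is the form that accumulates in differentiated cells that divide little. TGF-β turns resting fibroblasts into myofibroblasts through receptors that phosphorylate SMAD proteins. Myofibroblasts make collagens and the enzymes that crosslink them, assemble α-smooth muscle actin into stress fibers and stiffen the tissue that they repair.

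Each tested gene was placed in one of 4 classes. A gene was above or below the resting control level when edgeR's quasi-likelihood test gave an adjusted p under 0.01, and it was at that level when it was not called and the 95% interval of its log2 difference lay within 0.5 of zero. Genes that met neither rule were undecided. Of 18028 tested genes, 4060 were above (22.5%), 3609 were below (20%), 3681 were at the resting control level (20.4%) and 6678 were undecided. A difference of at least 2-fold was found for 766 of the genes above and 1676 of the genes below, and one of at least 4-fold for 205 and 546. Weakly expressed genes were mostly undecided: 96.8% of genes with a mean under 10 normalized counts, against 2.81% of genes with a mean over 1000. Of genes with a mean over 1000, 42.1% were above, 23.7% below and 31.4% at. From 100 to 1000 these shares were 25.7%, 27% and 31.7%. Counts of each gene list below are to be read beside the shares of all tested genes and of genes of like expression. A call did not always mean a large difference, since 1014 called genes had intervals inside the margin of 0.5. Libraries of the groups compared did not overlap for 9821 of the 18028 tested genes (54.5%), so a lack of overlap in a named gene was common.

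Depth ran along the comparison, with 21172663 to 24412783 counts in the resting control libraries and 36161274 to 36296333 in the combined libraries, and counts thinned to the lowest total gave 3827 genes above, 3529 below and 3688 at. The defining fibroblast genes had 2 of 13 members above, 6 below and 4 at, among them Pdgfra and Tcf21 below and Col1a2 and Postn above. Their summed levels, mostly from type I and III collagen genes, were 982200 to 1075000 normalized counts in the resting control and 1108000 to 1216000 in the combined group. Vim, the vimentin gene, was at the control level with 54230, 52330 and 54410 against 53780, 51980 and 50890 normalized counts. Markers of other cells were present too. The 23 macrophage markers summed to 31720 to 35260 normalized counts in the resting control and to 17030 to 25800 in the combined group, with 3 above, 10 below and 6 at. The summed level of the 16 endothelial markers was 13080 to 15200 against 10900 to 12150, that of the 12 pericyte and smooth muscle cell markers 15490 to 23760 against 11340 to 15090, and that of the 14 epicardial markers 30880 to 36960 against 8774 to 13320. Of the epicardial markers 2 were above, 3 below and 9 undecided, with a median log2 difference of 0.82, so that the sum and the median differed in direction. The 16 cardiomyocyte markers summed to 2418 to 2746 against 238 to 271, and 6 and 11 of them stayed under 10 normalized counts in every library of the resting control and of the combined group. The 7 lymphocyte and neutrophil markers summed to 83.1 to 106 against 52.0 to 68.7 and the 8 Schwann cell and adipocyte markers to 619 to 716 against 129 to 210. All these sums apart from the fibroblast one were lower in every combined library than in every resting control library, and their part in the results below was not tested. A lower sum did not mean that most members were below. Of the endothelial markers 4 were below, 1 at and 11 undecided, and of the cardiomyocyte markers 3 were below and 13 undecided. All 7 lymphocyte and neutrophil markers were undecided, and of the Schwann cell and adipocyte markers 2 were below and 6 undecided. Pericyte and smooth muscle cell markers had 2 above, 5 below and 5 undecided. In bulk RNA, fewer cells of a type and less RNA per cell cannot be told apart.

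The targeted gene was low in the combined group. H1f0 (ENSMUSG00000096210, GRCm38 chromosome 15, 79028450 to 79030504, plus strand) stood at 2515, 3033 and 2648 normalized counts in the resting control and at 843, 876 and 510 in the combined group. All 3 combined libraries lay below all 3 controls. edgeR gave a log2 difference of -1.91 ± 0.16 (SE), with an adjusted p of 2.18e-06 by edgeR's quasi-likelihood test. The gene had 2832, 2922 and 2806 normalized counts with TGF-β and scramble and 980, 1075 and 600 with vehicle and siRNA. Of the 7 linker histone genes tested, 5 were below and 2 at the resting control level. Hist1h1a, Hist1h1b and Hist1h1c, which encode linker histones of dividing and resting cells, had log2 differences of -1.91, -1.12 and -0.39, and the variant gene H1fx had -1.08. Hist1h1d and Hist1h1e were at the level (-0.25 and 0.08). Reads of near-identical histone genes may have been split between them.

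Contractile genes of smooth muscle and myofibroblasts did not share one position. Acta2, which encodes the α-smooth muscle actin of stress fibers, was at the resting control level, and so were Tpm1, Nexn and Smtn. A further 16 of the 30 tested genes were below that level, among them the calponin gene Cnn1, the myosin light chain gene Myl9 and the smooth muscle myosin heavy chain gene Myh11, and 5 were above it. The median log2 difference of the 30 genes was -0.57, against -0.002 over all 18028 genes. With TGF-β and scramble their median against the same resting control was 0.78, and with vehicle and siRNA it was -1.26.

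Acta2 (ENSMUSG00000035783, GRCm38 chromosome 19, 34241090 to 34255590, minus strand) stood at 27340, 31090 and 34600 normalized counts in the resting control and 29620, 33980 and 26310 in the combined group. The ranges of the groups overlapped over most of their width. Its log2 difference was -0.06 ± 0.11 (SE), with a 95% interval of -0.30 to 0.18 and an adjusted p of 0.682 by edgeR's quasi-likelihood test, and reads may be shared with other actin genes. The same gene had 109300, 109300 and 93650 normalized counts with TGF-β and scramble and 5442, 5927 and 4630 with vehicle and siRNA, so the combined group lay between the single treatments. Tpm1, a tropomyosin gene whose product winds along actin filaments, had the same order, with 15560, 16860 and 16190 normalized counts in the resting control and 12680, 15480 and 23400 in the combined group and means of 34100 with TGF-β and scramble and 4104 with vehicle and siRNA. Its combined libraries lay on both sides of the controls, and its log2 difference was 0.05 ± 0.13 (SE). Nexn, which encodes an actin filament protein, had 946, 1226 and 1188 against 980, 1141 and 1023 normalized counts and a log2 difference of -0.09. Tagln, the SM22 protein gene, was undecided, with 10610, 12940 and 16760 normalized counts in the resting control and 14500, 16150 and 19550 in the combined group. This was a log2 difference of 0.32 ± 0.15 (SE), with an interval of -0.01 to 0.65 that reached past the margin.

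**Figure D1:**
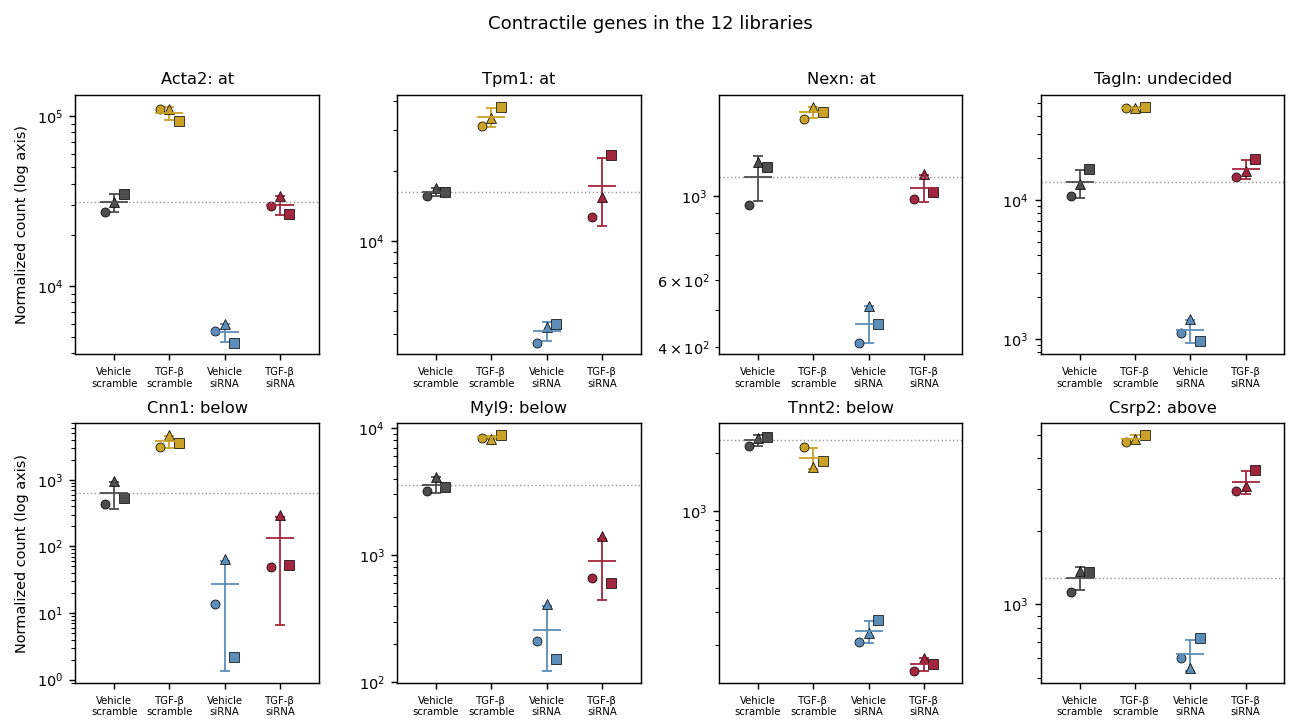
Normalized counts (log axis) of 8 contractile genes in the 12 libraries, with circles, triangles and squares for replicates 1, 2 and 3. Horizontal bars are group means, whiskers are SD (n = 3) and the dotted line is the resting control mean. The lower whisker is cut off just above zero for Cnn1 in vehicle siRNA and in TGF-β siRNA, where the SD exceeded the mean. In TGF-β siRNA, Acta2, Tpm1 and Nexn lie around the dotted line, Cnn1, Myl9 and Tnnt2 lie below it and Csrp2 lies above it.

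The genes below the resting control level included motor and regulatory proteins of smooth muscle. Myl9 had 3176, 4134 and 3423 normalized counts in the resting control and 660, 1416 and 606 in the combined group, without overlap. The fitted log2 difference was -2.08 ± 0.24 (SE, adjusted p = 2.08e-05). Cnn1, whose product binds actin, had 432, 949 and 527 against 48.9, 299 and 52.8 normalized counts. Each library of the combined group lay below each control, and replicate 2 was the highest library of Cnn1 in every one of the 4 groups. On the log2 scale it differed by -2.44 ± 0.39 (SE, adjusted p = 0.000297), and without the replicate block its adjusted p was 0.0218, over the threshold. Myh11 had 259, 942 and 171 against 20.2, 174 and 21.0 normalized counts, so that the highest combined library, again replicate 2, was just over the lowest control. That amounted to a log2 difference of -2.81 ± 0.26 (SE). Mylk, the gene of the kinase that phosphorylates myosin light chains, was below at -2.40 on the log2 scale, the tropomyosin gene Tpm2 at -1.36, the thin filament gene Lmod1 at -2.17 and the enteric actin gene Actg2 at -1.35. Actg2 lost its call in 5 of 23 alternatives, and its reads may be shared with other actin genes. Myh11, Mylk, Tpm2, Lmod1 and Actg2, like Cnn1, did not pass the threshold without the replicate block. Without replicate 2 of the combined group the log2 differences of Cnn1 and Myh11 were -3.26 and -3.48.

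Csrp2, Cald1, Cnn2, Pdlim7 and Des were the 5 contractile genes above the resting control level. Csrp2, which encodes a LIM protein of smooth muscle, had 1124, 1370 and 1358 normalized counts in the resting control and 2923, 3081 and 3572 in the combined group. No libraries of the groups overlapped. edgeR gave a log2 difference of 1.31 ± 0.08 (SE, adjusted p = 2.52e-07). Cald1, the caldesmon gene, was higher in each combined library too, with 45440, 45300 and 44180 against 76800, 72780 and 78670 normalized counts, and its mean with TGF-β and scramble was 51750. Cnn2 and Pdlim7 had log2 differences of 0.65 and 0.58. Des, the desmin gene, was above at 1.48 from low means of 31.2 and 83.5 normalized counts, and its groups overlapped.

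Promoter windows of contractile genes are shown because serum response factor acts on many smooth muscle genes through CArG boxes and SMAD proteins bind the short element CAGAC. The windows run from 250 bases before to 50 bases after the transcription start in RefSeq (GRCm38.p6), and 22 of the 30 list genes had at least 1 window. Only windows on X, Y and the autosomes, 1 of them left out, were searched. A CArG box was found on either strand in 17.9% of the 28 windows of the list and in 1.63% of all 32851 windows searched. Every base had to match the consensus (CC, then 6 bases that are A or T, then GG). The 5 windows of the list with such a box belonged to 4 genes, since Ldb3 has 2 of them. With at most 1 mismatch, a search added after the windows were seen, the shares were 46.4% and 21.1%. CAGAC was found on either strand in 53.6% and 49.6%. The genes with a full match were in several classes: Cnn2 (above), Myl9 and Fbxl22 (below) and Ldb3 (undecided) each had at least 1. Acta2 (chr19:34255324-34255623, minus strand, at the resting control level) held the CAGAC element on the reverse strand (GTCTG as printed) 235 bases before the start and, 84 and 34 bases before it, a pair of CArG boxes with 1 mismatch each and none without. Cnn1 (chr9:22099003-22099302, plus strand, below) held CAGAC 28 bases after the start and no CArG box under either rule. Myl9 (chr2:156775214-156775513, plus strand, below) held a fully matching CArG box 161 bases before the start and one with 1 mismatch 99 bases before it. Capitals mark these matches, which are a description of the letters and not of binding, and no match says only that the letters are not in the window.
Acta2: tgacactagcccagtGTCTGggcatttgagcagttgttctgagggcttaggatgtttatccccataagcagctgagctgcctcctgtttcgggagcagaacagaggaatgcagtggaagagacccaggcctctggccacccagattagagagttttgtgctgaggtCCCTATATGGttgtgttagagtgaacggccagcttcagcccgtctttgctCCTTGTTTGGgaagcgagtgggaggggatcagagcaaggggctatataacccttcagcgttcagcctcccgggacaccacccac
Cnn1: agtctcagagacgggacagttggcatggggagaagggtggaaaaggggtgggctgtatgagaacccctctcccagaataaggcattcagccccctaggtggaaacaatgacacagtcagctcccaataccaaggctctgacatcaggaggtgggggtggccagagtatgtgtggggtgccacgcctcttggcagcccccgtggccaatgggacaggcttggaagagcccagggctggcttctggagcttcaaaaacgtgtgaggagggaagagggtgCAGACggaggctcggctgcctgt
Myl9: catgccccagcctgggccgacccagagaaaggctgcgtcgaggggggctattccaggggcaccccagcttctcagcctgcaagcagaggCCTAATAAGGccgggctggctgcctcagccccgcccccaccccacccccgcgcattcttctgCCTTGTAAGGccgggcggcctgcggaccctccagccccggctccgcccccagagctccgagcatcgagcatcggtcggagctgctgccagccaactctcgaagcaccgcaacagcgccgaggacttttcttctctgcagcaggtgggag

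Sarcomere genes and nonmuscle actin genes went different ways. Of the 25 sarcomere and muscle calcium genes tested, 7 were below and 18 were undecided. Tnnt2, the cardiac troponin T gene, had 2178, 2411 and 2444 normalized counts in the resting control and 147, 173 and 159 in the combined group. It was the bulk of the summed cardiomyocyte markers in both groups. Its log2 difference was -3.87 ± 0.12 (SE, adjusted p = 1.29e-08), and the mean was 1899 normalized counts with TGF-β and scramble and 237 with vehicle and siRNA. Acta1, the skeletal actin gene, had 34.9, 45.9 and 74.9 against 2.33, 7.71 and 2.33 normalized counts, with a mean of 763 with TGF-β and scramble. Of 28 nonmuscle actin, myosin and actin-binding genes, 15 were above, 9 at and 2 below, with a median of 0.27. The γ-actin gene Actg1 had 33480, 32030 and 40780 against 68000, 65500 and 68400 normalized counts, and the actin crosslinker gene Actn1 had 21750, 22330 and 23860 against 50670, 46480 and 59780 normalized counts. Both were higher in each combined library than in any control, with log2 differences of 0.93 and 1.20. Flna, which encodes filamin A and links actin to the membrane, was at the resting control level with 54390, 55750 and 51660 against 52410, 56380 and 51040 normalized counts, and so was the tropomyosin gene Tpm4 (-0.00).

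Regulators of the cytoskeleton were divided, as tested genes in general were. Rac1, the gene of a GTPase that drives lamellipodia, had 3827, 4104 and 4692 normalized counts in the resting control and 11040, 10760 and 10270 in the combined group. Its mean was 3936 with TGF-β and scramble and 10260 with vehicle and siRNA, so both groups given H1.0 siRNA stood at the higher level. This was a log2 difference of 1.35 ± 0.08 (SE, adjusted p = 1.95e-07). Of the 27 genes of the SRF, MRTF, TEAD and YAP list, 7 were above, 6 below and 9 at. Srf, the serum response factor gene, was at the level (0.10), the gene of its coactivator Mrtfb was below (-1.65), and Wwtr1, which encodes the coactivator TAZ, was below with 6681, 6568 and 6140 against 2443, 2647 and 2948 normalized counts. Ankrd1, a YAP and TAZ target, was at the level with 3755, 3203 and 8363 against 3873, 3236 and 5376 normalized counts. Replicate 3 of Ankrd1 was the highest in every group. Of 31 focal adhesion genes, 12 were above, 8 below and 7 at, where all tested genes with a mean over 1000 had 42.1%, 23.7% and 31.4%. The fibronectin receptor gene Itga5 (1.59) and the collagen receptor gene Itga11 (1.34) were above, and the collagen receptor gene Itga1 (-1.79) and Itga8 (-2.92) were below. The groups overlapped for Itga8, which did not pass the threshold without the replicate block. Mcam, an adhesion molecule gene, was undecided with 262, 448 and 296 against 274, 308 and 237 normalized counts, although its mean with TGF-β and scramble was 2969.

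Targets of TGF-β were more often above than below. Of 26 target genes, 16 were above, 5 below and 5 at, with a median log2 difference of 0.84 beside 0.98 for TGF-β plus scramble and -0.56 for vehicle plus siRNA. Ccn2, the connective tissue growth factor gene, had 36660, 38830 and 40370 normalized counts in the resting control and 74870, 65900 and 92350 in the combined group. Every combined library was higher than every control. The fitted log2 difference was 1.00 ± 0.09 (SE, adjusted p = 5.87e-06), and the mean of TGF-β plus scramble was 85340. Nox4, an NADPH oxidase gene, was above at 1.15, Tnc, the tenascin C gene, at 1.70, and the cytokine gene Il11 at 2.56. Tgm2 (0.03) and Smad7 (0.21) were at the resting control level. Sertad4, a gene that the study followed, was also at the level, with 2004, 2290 and 1837 against 2261, 2464 and 1595 normalized counts and a mean of 4503 with TGF-β and scramble. Angptl4, Snai2 and Dact1 were below, with log2 differences of -1.51, -1.30 and -1.17.

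Among 13 ligand and latent binding protein genes, 4 were above, 4 below and 2 at. Tgfb1 was above with 1124, 1189 and 1136 against 2675, 2467 and 3648 normalized counts, whereas Tgfb2 was below with 5527, 4737 and 4156 against 1509, 1627 and 1253 normalized counts. The groups did not overlap for either ligand gene. Their log2 differences were 1.33 ± 0.10 (SE) and -1.71 ± 0.10 (SE). Ltbp2, a gene of the latent TGF-β binding protein family, had 9860, 19370 and 6932 against 53530, 56760 and 68230 normalized counts, next to a mean of 57860 with TGF-β and scramble and 4074 with vehicle and siRNA. Ltbp1, whose product tethers latent TGF-β to the matrix, was below at -0.87, and its mean with TGF-β and scramble was 10930 normalized counts beside 4797 in the resting control. The activin subunit gene Inhba was above (1.01) and Inhbb was below (-2.40). Of 19 receptor and SMAD genes, 5 were above, 5 below and 7 at, and the type I receptor gene Tgfbr1 (0.05) and Smad3 (0.02) were among those at the level. Smad3 had means of 2430 and 2454 normalized counts in the groups compared, 1298 with TGF-β and scramble and 3956 with vehicle and siRNA. Smad9 lay lowest, with 590, 512 and 231 against 45.0, 84.1 and 44.3 normalized counts. Of 17 feedback inhibitor genes, 5 were above, 4 below and 6 at, with Fstl3 (2.40), Pmepa1 (0.93) and Skil (0.75) above and Smad6 (-1.59) below.

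No BMP target was called above. Of 19 BMP target and ID genes, 11 were below, 1 was at and 7 were undecided, and the median log2 difference was -1.42. Id1, whose product blocks basic helix-loop-helix factors, had 2293, 1936 and 1398 normalized counts in the resting control and 318, 338 and 158 in the combined group. The lowest control was higher than all combined libraries. On the log2 scale it differed by -2.83 ± 0.14 (SE, adjusted p = 1.09e-07), and the mean was 780 normalized counts with TGF-β and scramble and 828 with vehicle and siRNA. Bmp4, a BMP ligand gene, had 3688, 2561 and 1874 against 472, 569 and 214 normalized counts and was below at -2.72, and Id3 was below at -1.78.

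Matrix genes were divided by family. Of 11 fibrillar collagen genes, 4 were above, 4 below and 2 at. Col1a1 had 237400, 269200 and 252900 normalized counts in the resting control and 273300, 325900 and 311000 in the combined group. The lowest combined library was above the highest control. That amounted to a log2 difference of 0.26 ± 0.07 (SE), with an adjusted p of 0.0113 by edgeR's quasi-likelihood test, which placed it at the level, and 5 of 23 alternatives, DESeq2 among them, called it above. Col1a2 was above at 0.47. Col5a1, whose product helps set fibril diameter, was above at 1.38, with 39370, 46980 and 43090 against 102100, 114300 and 121100 normalized counts. Col3a1 was at the level with means of 297200 and 271200 normalized counts, beside 492400 with vehicle and siRNA and 195700 with TGF-β and scramble. The minor fibrillar genes Col27a1 and Col24a1 were below at -2.09 and -4.66, and Col24a1 had -5.45 without replicate 2 of the combined group.

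Collagens that decorate fibrils or form networks were mostly below. Of 19 collagen VI, VIII and fibril-associated genes, 11 were below, 1 was above and 2 were at, with a median of -1.43. Col6a6, a collagen VI chain gene, had 933, 733 and 173 normalized counts in the resting control and 3.10, 2.31 and 2.33 in the combined group. Its fitted log2 difference of -7.76 rests on a few counts in each combined library. Col6a3 had 5208, 6818 and 3933 against 1698, 3834 and 1038 normalized counts, a log2 difference of -1.43 ± 0.19 (SE), and its mean with TGF-β and scramble was 12370. Col14a1 was below at -2.02. Col12a1, also fibril-associated, was above with 20480, 23090 and 20960 against 42150, 43390 and 39610 normalized counts, and Col8a1 was at the level (-0.07). Of 24 basement membrane genes, 12 were below, 4 above and 2 at, with the laminin genes Lama4 at -1.68 and Lamb1 at -1.51. Col4a1 was below at -0.34 and lost its call in 9 of 23 alternatives.

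Genes of enzymes that modify and crosslink collagen were mostly above. Of 27 such genes, 16 were above, 6 below and 4 at, with a median of 0.63. Loxl2, a lysyl oxidase gene, had 6022, 5808 and 13830 normalized counts in the resting control and 40520, 33910 and 79910 in the combined group. Replicate 3 was the highest in every group, and no combined library overlapped a control. edgeR gave a log2 difference of 2.61 ± 0.15 (SE, adjusted p = 2.21e-07), and the mean was 30660 with TGF-β and scramble. Lox itself had 81350, 95970 and 96770 against 196400, 212100 and 183300 normalized counts, and Loxl3 was above at 1.75. Serpinh1, the collagen chaperone gene, was above at 1.04.

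Matricellular genes lay on both sides, with 9 of 29 above, 12 below and 3 at. Postn (ENSMUSG00000027750, GRCm38 chromosome 3, 54361109 to 54391037, plus strand), the periostin gene that marks activated fibroblasts, had 16150, 20710 and 28470 normalized counts in the resting control and 52230, 52840 and 57510 in the combined group. Every combined library was above every control and below the 95910, 91980 and 116400 normalized counts of TGF-β plus scramble. The log2 difference from the resting control was 1.35 ± 0.11 (SE, adjusted p = 1.81e-06). Ccn4, a matricellular target of WNT signaling, had 2052, 4740 and 4078 against 42020, 42410 and 42690 normalized counts, and its mean was 15420 with TGF-β and scramble. Its log2 difference was 3.60 ± 0.22 (SE). Thbs4, a thrombospondin gene, had 34.9, 54.6 and 62.6 against 424, 317 and 332 normalized counts, and its mean was 1086 with TGF-β and scramble. Thbs1 was above at 0.96 and Thbs2 was below with 28380, 26320 and 17440 against 3238, 6626 and 2535 normalized counts, so the thrombospondin genes stood on opposite sides.

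Of 20 elastic fiber and fibronectin genes, 3 were above, 10 below and 6 at. Eln, which encodes elastin, was at the level with 24360, 39930 and 10500 against 19460, 43130 and 12840 normalized counts. This was a log2 difference of 0.03 ± 0.17 (SE), within groups whose libraries were ordered alike by replicate number, replicate 2 highest and 3 lowest. Fbn1, the fibrillin gene, was at the level as well (-0.04). Fn1, the fibronectin gene, was below at -0.37 ± 0.09 (SE, adjusted p = 0.00551) and lost its call in 7 of 23 alternatives. Aebp1, a gene of a collagen-binding protein, had 14080, 17490 and 17610 against 3563, 6068 and 4851 normalized counts and was below at -1.78.

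**Figure D2:**
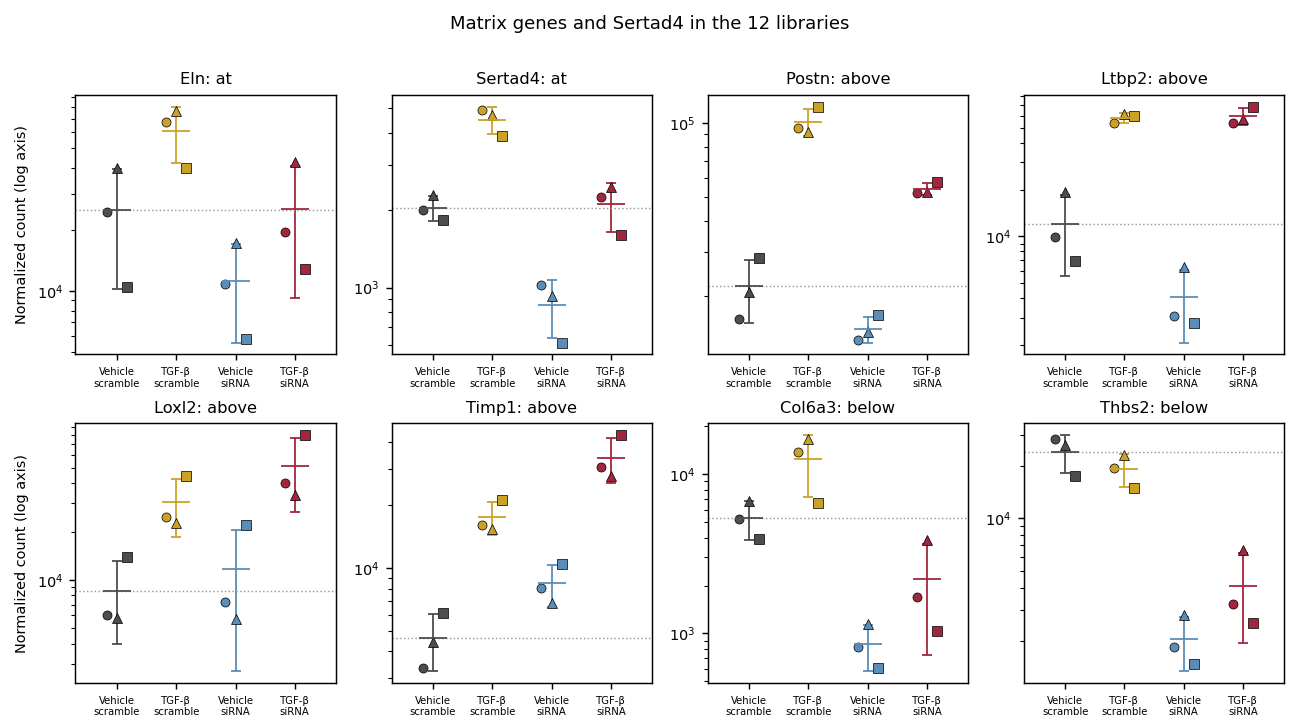
Normalized counts (log axis) of 7 matrix genes and Sertad4 in the 12 libraries, with circles, triangles and squares for replicates 1, 2 and 3, horizontal bars for group means, whiskers for SD (n = 3) and a dotted line at the resting control mean. In TGF-β siRNA, Eln and Sertad4 lie around the line, Postn, Ltbp2, Loxl2 and Timp1 lie above it, and Col6a3 and Thbs2 lie below it.

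Of 37 matrix proteinase and inhibitor genes, 10 were above, 17 below and 10 undecided, and none was at the level. The inhibitor gene Timp1 had 3335, 4433 and 6142 normalized counts in the resting control and 30350, 27760 and 43280 in the combined group, a log2 difference of 2.87 ± 0.11 (SE, adjusted p = 2.31e-08). Timp2 went the other way, with 28050, 29290 and 24030 against 6386, 7133 and 4363 normalized counts and a log2 difference of -2.21 ± 0.08 (SE). The groups did not overlap for either inhibitor. The membrane protease gene Mmp14 was above (1.41) and the gelatinase gene Mmp2 was below (-0.61). Of 34 proteoglycan and hyaluronan genes, 9 were above, 13 below and 5 at. The small leucine-rich proteoglycan genes Ogn (-2.49) and Lum (-1.96) were below and the membrane proteoglycan gene Cspg4 (1.07) was above. Acan, the aggrecan gene, was above at 2.18 ± 0.34 (SE), with 135, 403 and 34.4 against 872, 1405 and 234 normalized counts, so that the lowest combined library was under the highest control, and without replicate 2 of the resting control its log2 difference was 2.82.

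Markers of resting fibroblasts were largely below the level of the resting control. Of 31 such genes, 23 were below, 2 above and 2 at, and the median log2 difference was -1.68, beside -1.18 for TGF-β plus scramble and -0.52 for vehicle plus siRNA. Pdgfra, the PDGF receptor gene that identifies cardiac fibroblasts, had 18620, 19100 and 13450 normalized counts in the resting control and 4343, 5419 and 2304 in the combined group. The fitted log2 difference was -2.13 ± 0.13 (SE, adjusted p = 3.58e-07), and the mean was 16250 with vehicle and siRNA and 6270 with TGF-β and scramble. Tcf21, a transcription factor gene of the fibroblast lineage, had 10420, 8307 and 7756 against 2386, 2253 and 968 normalized counts. The combined libraries stayed below the control range of both genes. Ly6a, the Sca-1 surface antigen gene, was below at -4.21, Igfbp4, whose product binds insulin-like growth factors, at -3.15, and the scavenger receptor gene Scara5 at -3.10. Dpep1 was at the level (-0.20) and Mfap5 was above (1.57).

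Of 31 myofibroblast markers, 15 were above, 8 below and 6 at, and the median was 0.74, beside 1.48 for TGF-β plus scramble and -1.43 for vehicle plus siRNA. Of the 8 below, Actg2, Tpm2, Myl9, Lmod1 and Cnn1 are also on the contractile list, and the others were Fn1, Comp (-0.94) and Fap (-2.22). Meox1, a homeobox gene induced in activated cardiac fibroblasts, had 102, 112 and 200 normalized counts in the resting control and 1850, 1076 and 3712 in the combined group. Every combined library exceeded every control. On the log2 scale it differed by 3.93 ± 0.17 (SE, adjusted p = 3.67e-08), and its mean was 1529 with TGF-β and scramble and 52.7 with vehicle and siRNA. Ncam1, an adhesion molecule gene, had 1028, 1297 and 1055 against 5203, 6373 and 11720 normalized counts.

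**Figure D3:**
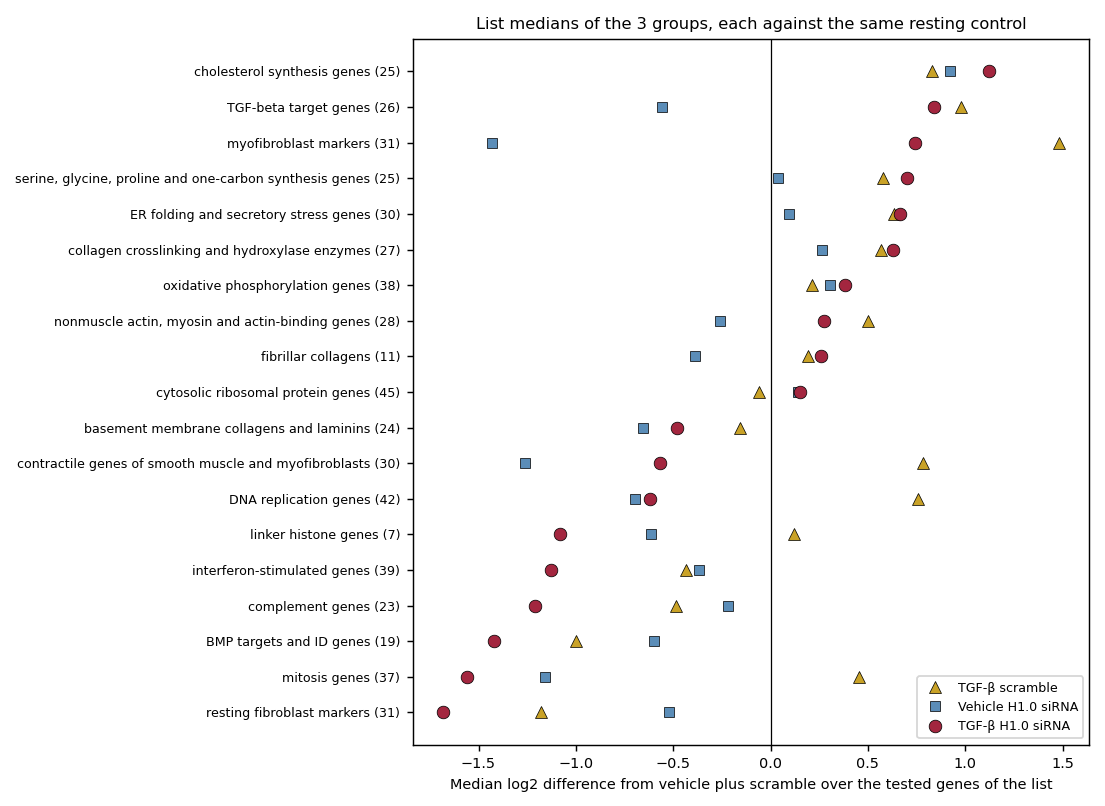
Median log2 difference from vehicle plus scramble over the tested genes of selected lists (number tested in parentheses). Triangles are TGF-β plus scramble, squares vehicle plus H1.0 siRNA and circles TGF-β plus H1.0 siRNA, which share the 3 resting control libraries. Other lists are not drawn. The circles run from -1.68 for resting fibroblast markers to 1.12 for cholesterol synthesis genes, and the contractile circle is at -0.57 while its triangle is at 0.78.

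Proliferation genes were mostly below the resting control level. Of 37 mitosis genes, 34 were below, 1 above and 1 at, with a median of -1.56, and of 42 DNA replication genes, 30 were below, 3 above and 7 at, with a median of -0.62. With TGF-β and scramble the medians of these lists against the same control were 0.46 and 0.76. Mki67, a proliferation marker, had 2960, 2716 and 3993 normalized counts in the resting control and 934, 835 and 1115 in the combined group, with a mean of 4613 with TGF-β and scramble. The combined and control libraries did not overlap. That amounted to a log2 difference of -1.74 ± 0.16 (SE, adjusted p = 4.22e-06). Ccnb1, the mitotic cyclin gene, was below at -2.12, and Mcm4, a replicative helicase gene, had 1495, 1243 and 1525 against 667, 661 and 725 normalized counts. Rrm1 and Rrm2, which encode subunits of ribonucleotide reductase, stood apart, with Rrm1 above at 1.24 and Rrm2 below at -1.50. Tyms, the thymidylate synthase gene, was at the level (0.05). Of 27 CDK inhibitor, cyclin and p53 target genes, 9 were above, 11 below and 5 at. Cdkn1a, which encodes the CDK inhibitor p21, had 6013, 5290 and 7260 against 16170, 15170 and 13030 normalized counts and a log2 difference of 1.27 ± 0.11 (SE), and its mean was 16970 with vehicle and siRNA and 6469 with TGF-β and scramble. Cdkn2b was above at 1.62, with a mean of 1498 beside 461 in the resting control, 559 with TGF-β and scramble and 395 with vehicle and siRNA. Ccnd1, the G1 cyclin gene, was below with 4200, 3396 and 5749 against 1117, 816 and 1263 normalized counts.

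Interferon-stimulated and complement genes were mostly below. Of 39 interferon-stimulated genes, 35 were below, 2 at and 1 above, with a median of -1.13, beside -0.43 for TGF-β plus scramble and -0.36 for vehicle plus siRNA. Ifit3, an antiviral effector gene, had 7667, 5221 and 4304 normalized counts in the resting control and 3046, 1347 and 623 in the combined group. edgeR gave a log2 difference of -2.02 ± 0.23 (SE, adjusted p = 2.22e-05), and without the replicate block it did not pass the threshold. The antigen presentation genes H2-K1 and B2m were below at -1.26 and -1.08, where Ifit3 and H2-K1 may share reads with related genes. Ifi27 was the member above (0.75) and Irf1 was at the level (0.15). Of 23 complement genes, 15 were below, 1 above and 3 at. C3, the central complement gene, had 109700, 122800 and 97260 against 47190, 47980 and 25660 normalized counts, a log2 difference of -1.50 ± 0.15 (SE), and C7 was below at -3.39. Macrophage marker sums were also lower in the combined libraries, as given above. Of those markers Mrc1 (-2.82), Cd68 (-0.97) and Lyz2 (-0.97) were below, the receptor gene Csf1r (0.23) was at the level, and Cx3cr1 (1.40) and Adgre1 (0.49) were above.

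Of 34 chemokine and cytokine genes, 17 were below, 9 above and 1 at. Cxcl12, a stromal chemokine gene, had 16070, 30970 and 19780 against 2710, 6110 and 3685 normalized counts, and Cxcl5, a neutrophil chemokine gene, had 2878, 3417 and 4135 against 83.8, 124 and 15.5 normalized counts. Both were lower in each combined library than in any control, with log2 differences of -2.44 and -5.68. Ccl2 was below at -1.40. Ccl17, a chemokine gene for T cells, was the opposite case, with 24.0, 12.4 and 31.9 against 960, 703 and 1209 normalized counts, a log2 difference of 5.39 ± 0.16 (SE, adjusted p = 1.29e-08) and a mean of 427 with TGF-β and scramble. The cytokine genes Il6 and Lif were above at 1.31 and 2.19.

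Several biosynthetic lists were mostly above. Of 25 cholesterol synthesis genes, 18 were above, 2 at and 5 undecided, with a median of 1.12. The median taken within replicate numbers 1, 2 and 3 alone was 1.59, 1.40 and 0.50. Insig1, the gene of an ER protein that restrains sterol synthesis, had 2824, 2976 and 6982 normalized counts in the resting control and 16070, 12910 and 11070 in the combined group. Its log2 difference was 1.71 ± 0.28 (SE, adjusted p = 0.000297). Fdps, the farnesyl diphosphate synthase gene, was above at 1.74. Of 30 ER folding and secretory stress genes, 25 were above, 3 at and 1 below, with a median of 0.67. Hspa5, the chaperone BiP gene, had 20320, 21340 and 25850 against 43990, 38210 and 42190 normalized counts. P4hb, a subunit gene of prolyl hydroxylase, was above at 1.33, Hyou1 at 1.30 and Edem1 at 1.41. Of 25 serine, glycine, proline and one-carbon genes, 19 were above and 4 below, with the proline synthesis gene Pycr1 at 1.61, Mthfd1 at 1.89 and the glutamine synthetase gene Glul below at -1.82.

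Oxidative phosphorylation genes differed by less. Of 38 such genes, 26 were above and 12 at, with a median of 0.39. Atp5b, the ATP synthase β subunit gene, had 10490, 10930 and 12720 normalized counts in the resting control and 18380, 17880 and 19510 in the combined group, without overlap. This was a log2 difference of 0.71 ± 0.06 (SE). Of 45 cytosolic ribosomal protein genes, 29 were at the level, 13 above and 1 below, with a median of 0.15. Of 24 glycolysis genes, 9 were above, 4 below and 6 at. Gapdh was at the level, with 16410, 17300 and 21140 against 17150, 19040 and 19750 normalized counts, beside means of 30960 with TGF-β and scramble and 9737 with vehicle and siRNA. The lactate transporter gene Slc16a3 was above at 2.21.

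**Figure D4:**
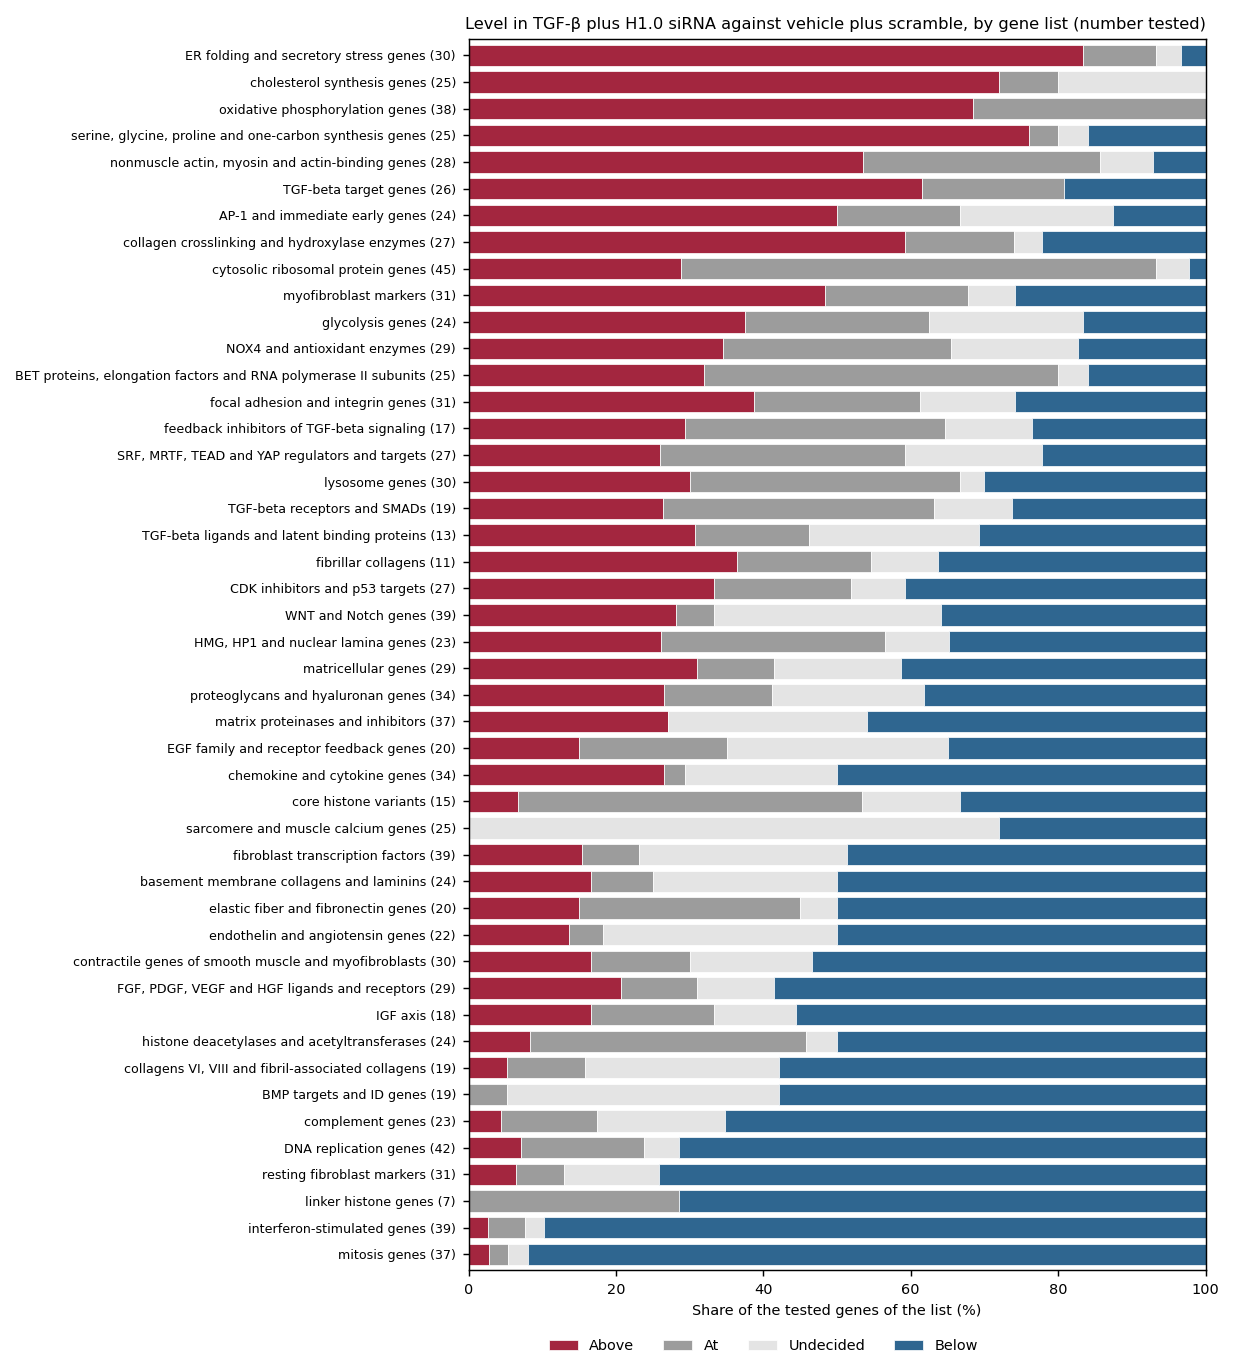
Share of the tested genes (percent, number tested in parentheses) above, at, undecided or below the resting control level in TGF-β plus H1.0 siRNA. The gene lists other than the cell type markers are shown, ordered by the share above minus the share below. ER folding and cholesterol synthesis genes have 25 of 30 and 18 of 25 above, and interferon-stimulated and mitosis genes have 35 of 39 and 34 of 37 below.

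Genes of the transcription machinery lay in every class, as tested genes in general did. In the list of BET proteins, elongation factors and polymerase subunits, 12 of 25 genes were at the level, 8 above and 4 below. Polr2a, the gene of the largest RNA polymerase II subunit, had 9123, 8711 and 6961 against 4570, 5199 and 4363 normalized counts and was below at -0.81, while the small subunit gene Polr2k was above at 0.82. Of 24 histone deacetylase and acetyltransferase genes, 12 were below, 9 at and 2 above. Hdac1 was at the level with 2028, 2071 and 1932 against 2021, 2106 and 2111 normalized counts, and the related Hdac5 was below at -1.03. Of 23 HMG, HP1 and nuclear lamina genes, 6 were above, 8 below and 7 at. Lmna, the lamin A gene, was above with 5881, 6203 and 6129 against 14210, 14530 and 12100 normalized counts, and the lamina-associated gene Tmpo was below at -1.99.

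Among the genes at the resting control level, the 10 with the widest range over the 4 group means were Acta2, Tpm1, Ankrd1, Gadd45b, Armcx4, Adgrb2, Nt5dc2, Nrbp2, Aox1 and Cdnf. The mean was highest with TGF-β and scramble and lowest with vehicle and siRNA for 7 of them, and Nrbp2, Aox1 and Cdnf had the reverse order. Choosing genes at the level by a wide range of means favors such orders, so the orders are no separate result. Armcx4 had 668, 799 and 776 normalized counts in the resting control and 639, 729 and 761 in the combined group, with a mean of 1531 with TGF-β and scramble and one of 207 with vehicle and siRNA. Aox1, the aldehyde oxidase gene, had 794, 810 and 820 against 847, 863 and 665 normalized counts, with means of 267 and 1908. Their log2 differences from the resting control were -0.07 ± 0.09 (SE) and -0.03 ± 0.19 (SE). Gadd45b had 1074, 1127 and 1126 against 1276, 1244 and 1337 normalized counts, without overlap. Its adjusted p was 0.0124 by edgeR's quasi-likelihood test, and 3 of 23 alternatives called it above. All these comparisons share the 3 resting control libraries, so the values stand side by side only.

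The 10 genes farthest above the level had to reach a mean of 100 normalized counts in the combined group alone, so low control levels came with the choice. Crabp2, a retinoic acid binding protein gene, had 1.09, 1.24 and 1.23 normalized counts in the resting control and 78.4, 106 and 712 in the combined group. Replicate 3 was far above the other combined libraries. The fitted log2 difference of Crabp2, 7.58, rests on about 1 count in each control, so no fold is read from it. Olr1, an oxidized LDL receptor gene, had 16.3, 31.0 and 49.1 against 818, 749 and 1612 normalized counts. Sox8, a transcription factor gene, had 26.1, 36.0 and 22.1 against 631, 495 and 1035 normalized counts. Lef1, a WNT effector gene, had 6.54, 2.48 and 3.69 against 80.7, 53.2 and 282 normalized counts. The means of Olr1, Sox8 and Lef1 with TGF-β and scramble were 324, 222 and 42.2, between both groups. Ccl17, Baalc, Car2, Gjb2, Serinc2 and Eef1akmt1 completed the 10. Eef1akmt1 lost its call in 7 of 23 alternatives, with 0, 11.2 and 12.3 against 123, 158 and 187 normalized counts. It had 189, 134 and 238 with TGF-β and scramble and 0, 266 and 190 with vehicle and siRNA.

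The 10 genes farthest below were Col6a6, Kcnj5, Gpr165, Cxcl5, Agtr2, Myoc, Igsf10, Bmp3, Rerg and Ptn. Agtr2, the type 2 angiotensin receptor gene, had 244, 447 and 67.5 against 1.55, 14.7 and 0.777 normalized counts. Kcnj5, a potassium channel gene, had 172, 164 and 131 against 3.10, 1.54 and 2.33 normalized counts. In both genes each combined library was far under each control, which is no separate result. Lack of overlap, and a minimum mean required of the resting control alone, were conditions for choosing these 10 genes. Ptn, the gene of the growth factor pleiotrophin, was the most abundant of them in the resting control, with 13860, 12770 and 7276 against 508, 528 and 284 normalized counts and a log2 difference of -4.68 ± 0.14 (SE, adjusted p = 1.29e-08). Its mean was 3759 with TGF-β and scramble and 1154 with vehicle and siRNA.

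**Figure D5:**
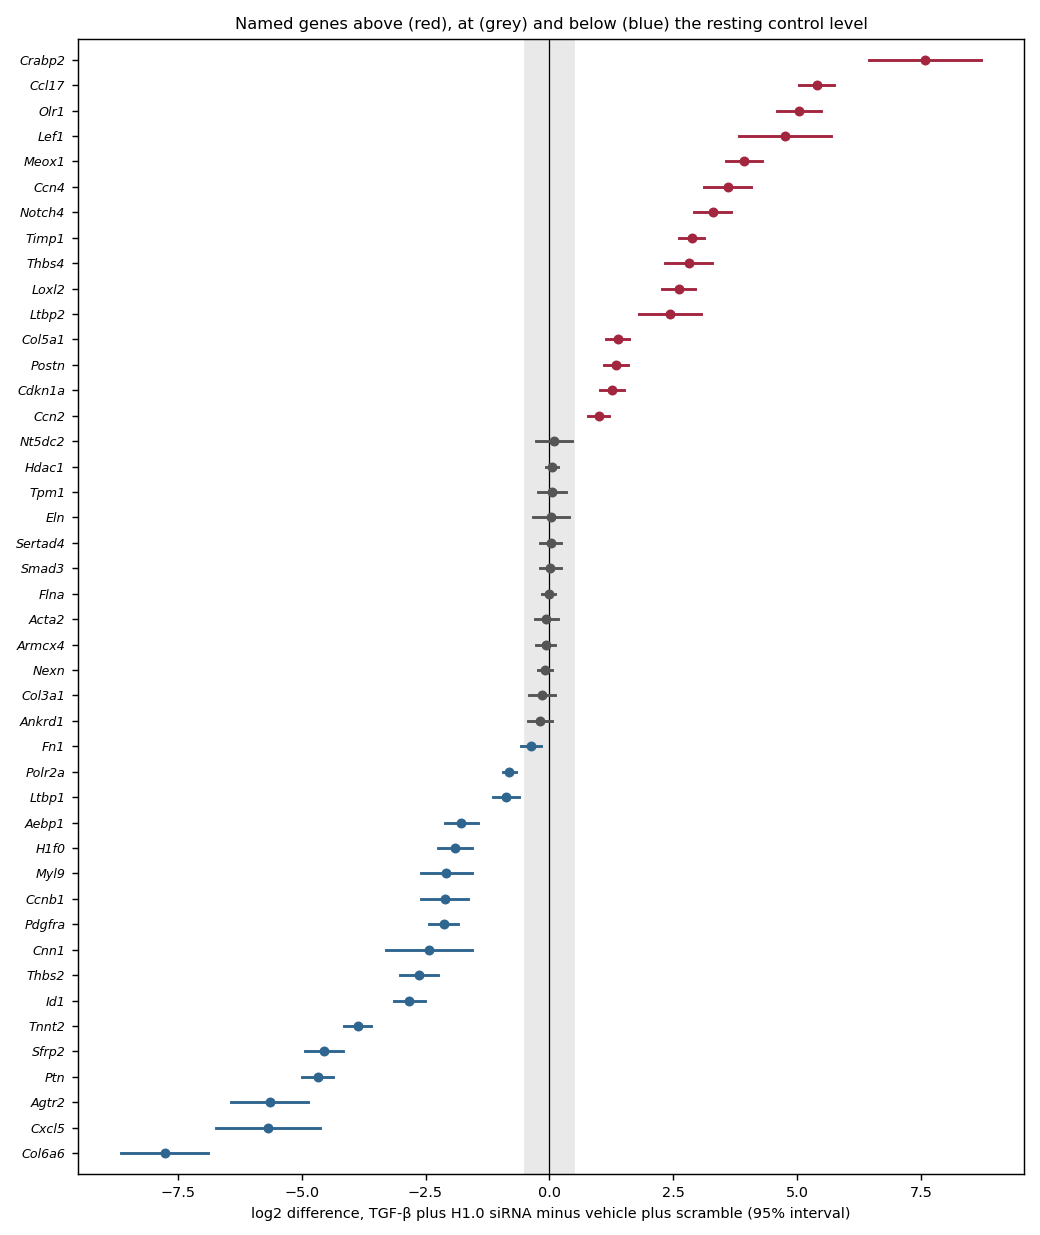
Log2 difference of TGF-β plus H1.0 siRNA minus vehicle plus scramble with its 95% interval for named genes, red for genes above, grey for genes at and blue for genes below the resting control level, with a shaded band from -0.5 to 0.5. Acta2, Tpm1, Eln and Sertad4 lie within the band, Postn, Timp1 and Meox1 lie to its right, and Cnn1, Pdgfra and Ptn lie to its left.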

How the data were processed

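RNA-seq was done on 12 libraries of mouse cardiac fibroblasts. The authors quantified paired-end, rRNA-depleted reads with Salmon against mm10 and deposited estimated counts per transcript with a TPM column. Among the tests, TPM entered only the alternative with an offset for transcript length, where it weighted the lengths. Estimated counts were summed per gene (GENCODE M21, GRCm38, which left out 1162 of 117135 transcripts), rounded, and tested with edgeR 4.0.16 (quasi-likelihood F test, TMM, R 4.3.3) on all 12 libraries, for 18028 genes with at least 10 counts in total. Normalized counts are TMM-scaled CPM times the mean library total. P-values were adjusted by Benjamini-Hochberg over all genes tested. The replicate number was a block by the plan of the comparison, and the labels do not say whether same-numbered libraries share a cell isolation. Deviations from the group mean correlated between same-numbered libraries, at 0.197, 0.481 and 0.494 for replicates 1, 2 and 3 of the groups compared. Every such pair was above 0.1. Libraries numbered 1 and 2 also correlated with each other across groups, at 0.0253 to 0.29, so the pairing of these numbers is less clear than that of replicate 3. The self-test ran on simulated data. Totals were 19864545 to 36296333 counts per library.

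The gene lists and the groups were chosen with earlier results of these data known. Genes named were those the study names, the 10 with the widest difference in each direction (mean of at least 100 normalized counts in the higher of the groups compared, no overlap), the 10 at the level with the widest range of group means, and up to 3 per class and list. Of 199 genes printed, 53 fall outside this rule and were chosen after their values were seen. Some genes and 1 list are not reported here. Alternatives were other normalizations, filters, tests, margins, no block, thinned counts and each library left out.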

Additional observations from a re-analysis of the deposited data

Results flagged for a closer look

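The effect of TGF-β differed between cells with H1.0 siRNA and cells with scramble for 12 named genes by the interaction term of edgeR's quasi-likelihood test over all genes (adjusted p under 0.01). The interaction is the log2 effect of TGF-β in siRNA cells minus that in scramble cells. It was positive for Ccn2 (0.945), Dact1 (0.719), Gadd45b (0.623), Itga11 (0.828), Meox1 (1.93), Mmp14 (0.503), Nexn (0.614), Tagln (2.05) and Thbs1 (1.6). It was negative for Ccnd1 (-0.772), Mcam (-1.82) and Mcm4 (-1.22). For Tagln, the mean went from 13440 to 46140 normalized counts with scramble and from 1160 to 16730 with siRNA. For Mcam it went from 336 to 2969 with scramble and from 107 to 273 with siRNA. Over all tested genes the interaction passed the threshold for 74 genes in the positive and 44 in the negative direction.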

How the results depend on the processing

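No gene called above or below was called in the opposite direction under any alternative. The count of genes at the resting control level was 1846 with a margin of 0.3 and 5387 with a margin of 1. Without the replicate block, which uses the pairing of replicate numbers, 3430 genes were above, 2774 below and 3611 at. Without it 20 named genes lost their call: Acan, Actg2, Adgre1, Ccl2, Cnn1, Col4a1, Col6a3, Comp, Cspg4, Des, Eef1akmt1, Fn1, Hist1h1c, Ifit3, Itga8, Lmod1, Myh11, Mylk, Thbs1 and Tpm2. Leaving out each library in turn gave 3480 to 4094 genes above, 3045 to 3608 below and 3598 to 3805 at. With the 6 compared libraries alone, 2999 were above, 2700 below and 4057 at, with an offset for transcript length 3143, 3175 and 3742, and with DESeq2 3931, 3809 and 3481. Of 199 named genes, 23 changed their call in at least 1 of 23 alternatives, most often Col4a1, Fn1, Eef1akmt1, Col1a1, Actg2 and Adgre1. The cause was not tested. The list medians of endothelial markers (-0.501 to 0.00158) and of epicardial markers (-0.125 to 0.832) changed sign. Most weakly expressed genes were undecided, and the part of depth in this was not tested.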

Other observations

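Genes of signaling pathways other than TGF-β were on both sides of the resting control. Of 39 WNT and Notch genes, 11 were above, 14 below and 2 at. Notch4 had 158, 212 and 366 normalized counts in the resting control and 2371, 2042 and 2547 in the combined group, whereas Notch3 had 4361, 3234 and 1794 against 555, 530 and 339 normalized counts, and both receptor genes separated all combined from all control libraries. Their log2 differences were 3.29 ± 0.17 (SE) and -2.67 ± 0.11 (SE). The Notch target gene Heyl was above at 2.44, the ligand gene Wnt11 at 3.41, and the WNT antagonist gene Sfrp2 was below at -4.55. Of 29 FGF, PDGF, VEGF and HGF genes, 17 were below, 6 above and 3 at, with the angiogenic ligand genes Vegfa (1.71) and Fgf2 (1.25) above. Of 20 EGF family and feedback genes, 3 were above, 7 below and 4 at, with the ligand gene Hbegf above at 2.91. Of 18 IGF axis genes, 10 were below, 3 above and 3 at, and the ligand gene Igf1 was above with 6295, 6748 and 6813 against 15040, 13990 and 10860 normalized counts.

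Of 22 endothelin, angiotensin and other vasoactive genes, 11 were below, 3 above and 1 at, with the receptor genes Agtr1a (-3.61) and Ednra (-2.99) below and the cyclooxygenase gene Ptgs2 (2.82) above. Of 39 fibroblast transcription factor genes, 19 were below, 6 above and 3 at. Of 24 AP-1 and immediate early genes, 12 were above, 3 below and 4 at, with the transcription factor gene Egr2 above at 3.16. Of 15 core histone variant genes, 7 were at the level, 5 below and 1 above, and the centromeric histone gene Cenpa was below at -1.79. Of 30 lysosome genes, 9 were above, 9 below and 11 at, and of 29 NADPH oxidase and antioxidant genes, 10 were above, 5 below and 9 at.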
